A study of Oryza sativa with 20 samples.

Results

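The subject here is a set of 68 rice miRNA tags whose normalised level was at least 2 times higher at the last stage, S5, than at the first, S1, in the lamina joint as well as the blade of the seedling leaf. A tag is one numbered miRNA entry of the deposited count files. The 68 members were chosen from 287 tags with a mean of 10 CPM (counts scaled to a common library size) or more over all libraries, out of 484 tags with any count and 685 listed. For each tissue, the mean CPM at S5 plus 5 was divided by the mean CPM at S1 plus 5, and both ratios had to reach 2. Of the 287 tags, 30.7% reached that ratio in the lamina joint, 30.7% in the blade and 23.7% in both. These values chose the members, so the S1 to S5 change is described without a test. The tests below use S2, S3 and S4, whose libraries entered the choice only through the mean over all libraries. A choice of tags higher at S5 than at S1 still favours a rise at the stages between. Counts of rising members within a tissue are therefore no independent support of a rise.

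MicroRNAs are short RNAs that are loaded into Argonaute proteins and guide the cleavage or translational repression of transcripts with a matching site. In plants many of their targets are transcription factors of growth, organ polarity, phase change and hormone response, and sets of miRNAs are known to change as a leaf passes from cell division to expansion and maturity. The lamina joint is the hinge between sheath and blade that sets how far a rice leaf leans from the stem. No deposited file gives a tag its miRNA name or sequence, so tags are described by number, level, tissue and stage, at most 2 in each direction for each comparison, and no role is given to any of them.

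Small RNA was sequenced from 10 groups of 2 libraries each: lamina joint (LJ) at S1, S2, S3, S4 and S5, and blade at S1, S2, S3, S4 and S5. Both tissues were cut from the first complete leaf of seedlings grown in water, on days 4, 5, 6, 7 and 9 after germination. No label ties a day to a stage, and none names a cultivar, mutant or treatment. Nothing in the labels says whether the 2 libraries of a group came from separate plants, so every p-value below reflects only the spread between libraries of a group, which may be technical. Each library is bulk tissue, in which fewer cells of a type and less RNA per cell cannot be told apart. No marker of tissue identity can be read from numbered tags, so the tissue labels were not checked.

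Library totals lay between 194799 and 1169330 counts. Between 60 and 68 members were detected in a library, and 49 had a count in all 20. The S1 libraries of the lamina joint stood apart from each other: the median absolute difference of the members between them was 0.76 on the log2 scale, against 0.41 to 0.53 in the other 9 groups. In 8 of 68 members they were more than 4-fold apart, on the scale of CPM plus 5. Without the first LJ S1 library the rule gave 60 members, 58 of them among the 68. Without the second it gave 71, of which 64 were among the 68.

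The members took up a growing share of each library, and this share needs no scaling between libraries. In the lamina joint they held 22.0% and 35.9% of the counts at S1, 26.3% and 30.9% at S2, 38.8% and 31.0% at S3, 38.5% and 39.0% at S4, and 56.0% and 56.2% at S5. In the blade they held 30.7% and 33.9% at S1, 28.5% and 29.8% at S2, 38.4% and 36.4% at S3, 43.9% and 45.8% at S4, and 60.9% and 60.6% at S5. Both tissues thus had their highest share at S5, where the groups of S1 and S5 did not overlap, as the choice of members favours. A single member, tag_011, held much of it.

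Tag_011 was the most abundant member, and its share lay near a level until S4 in the lamina joint. Its share there was 12.3% and 28.8% at S1, 17.3% and 20.7% at S2, 23.8% and 19.1% at S3, 20.1% and 18.8% at S4, and 38.3% and 40.4% at S5. In the blade its share was 20.3% and 22.1% at S1, 16.8% and 16.8% at S2, 22.3% and 19.1% at S3, 24.0% and 26.2% at S4, and 41.1% and 40.4% at S5. The S5 libraries of both tissues were the highest of all, and the S1 libraries of the lamina joint spanned the range of S2 to S4. The other 67 members together held 9.65% and 7.10% of the lamina joint counts at S1, 8.97% and 10.2% at S2, 15% and 11.8% at S3, 18.4% and 20.2% at S4, and 17.6% and 15.8% at S5. As a share of all counts, those of tag_011 included, the 67 were thus highest at S4 in the lamina joint. The larger share of tag_011 at S5 lowers this share, so it does not show a fall of the 67 from S4 to S5. In the blade the 67 held 10.4% and 11.8% at S1, 11.7% and 13.0% at S2, 16.1% and 17.3% at S3, 19.8% and 19.6% at S4, and 19.8% and 20.2% at S5. S4 and S5 thus differed by less than 1 percentage point in this share of all counts. It too is lowered at S5 by the larger share of tag_011, so it does not show that the 67 stayed level.

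**Figure D1:**
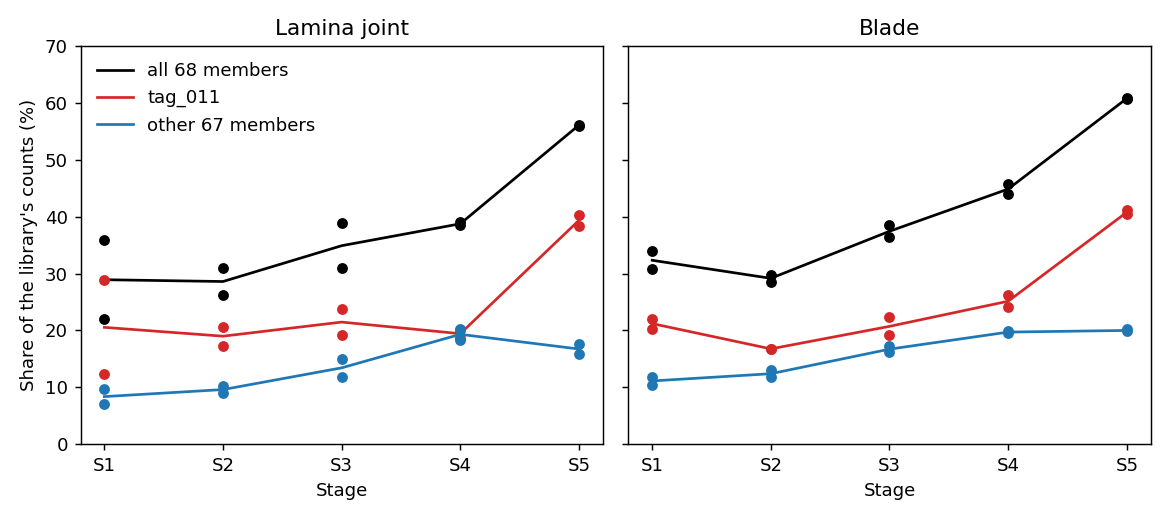
Share of each library's counts, in percent, held by all 68 members, by tag_011 alone and by the other 67, at stages S1 to S5 in lamina joint (left) and blade (right). Points are single libraries and lines join the means of 2 libraries; tag_011 stayed between 12.3% and 28.8% up to S4 and reached 38.3% to 41.1% at S5.

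Because the members filled more of the later libraries, the scaling between libraries bears on them directly. The TMM factors, which adjust library totals so that most tags keep their level, lay between 1.04 and 1.26 at S1 and between 0.621 and 0.800 at S5. By total counts alone, 37 tags met the rule, all of them among the 68, and by upper quartile factors 77 did. All 68 members kept a ratio above 1 in both tissues by total counts, with a median ratio of 2.80 in the lamina joint and 2.71 in the blade, against 4.36 and 4.70 with TMM. Of the 5 most abundant members, 0 met the rule by total counts. Tag_011 had ratios of 2.89 in the lamina joint and 3.37 in the blade with TMM, and 1.92 in each by total counts.

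The members covered a wide range of levels. Their mean over all libraries ran from 11.5 CPM to 272175 CPM, with a median of 173 CPM, against a median of 102 CPM for the other 219 tags above 10 CPM. There were 5 members of 10000 CPM or more, 7 between 1000 and 10000, 26 between 100 and 1000, and 30 under 100 CPM. Tag_011 and tag_313 were the most abundant. Tag_313 had 35618 and 30581 CPM at S1, 26301 and 48360 at S2, 55314 and 50824 at S3, 82470 and 41845 at S4, and 65154 and 77526 at S5 in the lamina joint. In the blade it had 40756 and 51321 CPM at S1, 36725 and 26318 at S2, 43757 and 64565 at S3, 81320 and 72530 at S4, and 112120 and 133577 at S5. Its S5 libraries lay above its S1 libraries in both tissues, while its S4 libraries in the lamina joint overlapped those of S2 and S3.

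The ratios of S5 to S1 ran from 2.03 to 156 in the lamina joint and from 2.03 to 52.8 in the blade. In 27 members the lamina joint ratio was the higher one and in 41 the blade ratio. In 11 members both ratios were 10 or more, and in 9 members both were under 3. The 11 were of middling abundance, with means between 24.7 and 700 CPM, and their median level was 8.14 CPM at S1 and 645 CPM at S5 in the lamina joint, and 6.29 CPM at S1 and 230 CPM at S5 in the blade. The 9 with small ratios included tag_313 and had a median level of 24.8 CPM at S1 and 73.4 CPM at S5 in the lamina joint, and 38.4 and 121 CPM at S1 and S5 in the blade.

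Tag_132 had the largest ratios by the smaller of its tissue values, 156 in the lamina joint and 52.8 in the blade. In the lamina joint it had 4.62 and 11.7 CPM at S1, 9.55 and 33.2 at S2, 14.3 and 44.4 at S3, 648 and 1289 at S4, and 2052 and 2039 at S5. In the blade it had 2.76 and 19.7 CPM at S1, 8.23 and 12 at S2, 23.1 and 30.4 at S3, 125 and 310 at S4, and 1042 and 661 at S5. The jump thus lay between S3 and S4 in both tissues, with no overlap of the libraries of those stages. Tag_059 came next by the same measure, with ratios of 39.5 in the lamina joint and 31.4 in the blade. The ratios differed most between tissues, in the sense of one divided by the other, for tag_129, at 8.68 in the lamina joint and 50.3 in the blade, and for tag_662, at 2.56 and 14.8; both were under 100 CPM in each LJ group mean.

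Near the ratio of 2, tag_225 and tag_022 lay just inside, with smaller ratios of 2.03 and 2.03, and tag_496 and tag_123 just outside, with 2.00 and 1.98. Tag_022 shows how far single libraries can set membership. It had 7.70 and 1342 CPM in the LJ libraries of S1, against 837 and 1917 CPM at S5. Its lamina joint ratio was 1.03 without the first S1 library and 120 without the second.

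**Figure D2:**
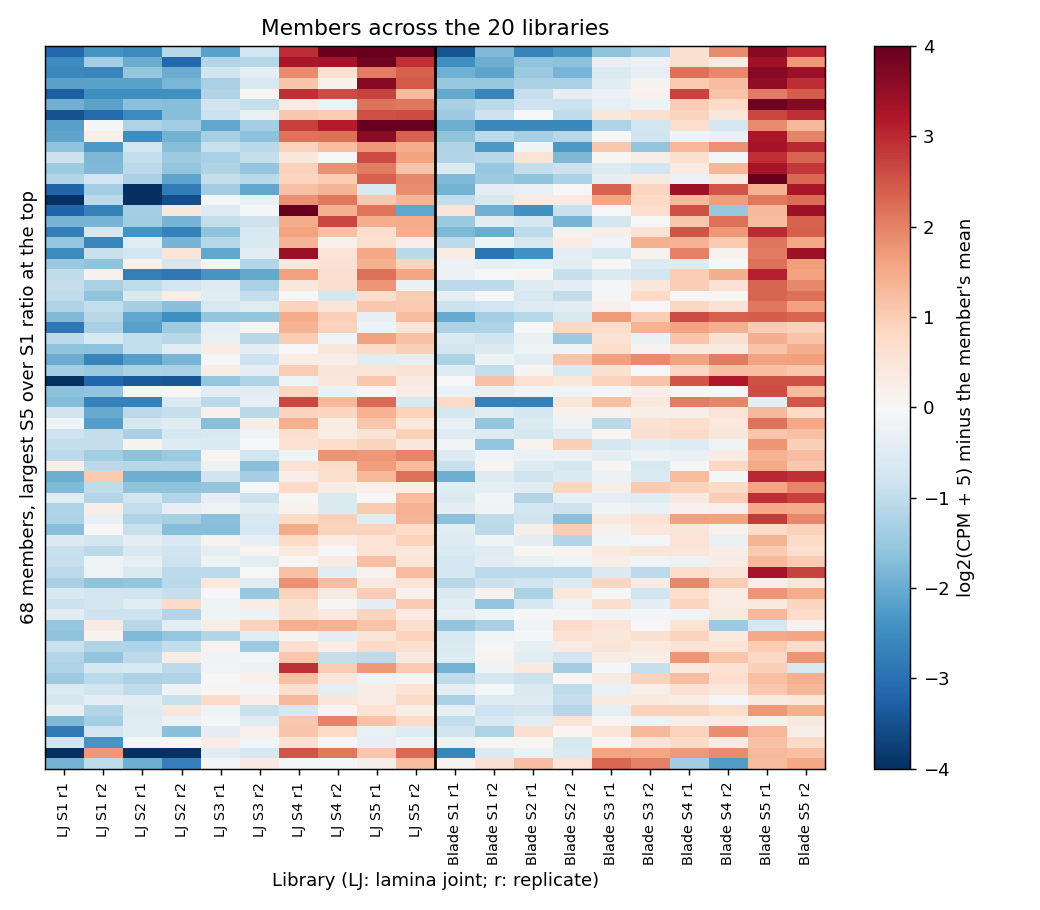
Level of each of the 68 members (rows, ordered by the smaller of the S5 over S1 ratios in each tissue, largest at the top) in each of the 20 libraries (columns, lamina joint left of blade, S1 to S5), as log2 of CPM plus 5 minus the member's mean over all libraries. Red is above and blue below that mean; in the lamina joint the colour changes mainly between the S3 and S4 columns, and in the blade more gradually.

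A higher level at S5 than at S1 did not mean a steady rise. The means rose at every step from S1 to S5 in 14 of the 68 members in the lamina joint, in 26 in the blade and in 8 in both tissues. In the lamina joint, 39 members had their highest mean at S5 and 29 at S4, while in the blade 54 were highest at S5, 12 at S4, 1 at S3 and 1 at S2. In 37 members S5 was the highest in both tissues, in 17 the peak was at S4 in the lamina joint and S5 in the blade, and in 11 it was at S4 in both. For the 17, the median level over members was 9.68, 32.8, 32.9, 122 and 71.5 CPM from S1 to S5 in the lamina joint, and 33.5, 33.6, 51.7, 92.5 and 230 CPM in the blade. For the 11, it was 28.0, 14.3, 39.6, 300 and 150 CPM in the lamina joint and 52.3, 112, 284, 390 and 359 CPM in the blade.

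The place of the largest step differed between the tissues. On the scale of log2(CPM + 5), the largest rise lay between S3 and S4 for 40 of 68 members in the lamina joint and for 11 in the blade, and between S4 and S5 for 7 in the lamina joint and 31 in the blade. The same step was the largest in both tissues for 20 members. The median step of the members in the lamina joint was 0.13 from S1 to S2, 0.63 from S2 to S3, 1.32 from S3 to S4 and 0.20 from S4 to S5. In the blade it was 0.35, 0.63, 0.46 and 0.89 in the same order. The other 219 tags above 10 CPM also differed between the tissues in this way: their largest rise lay between S3 and S4 for 24.2% in the lamina joint and 14.6% in the blade, and between S4 and S5 for 13.2% in the lamina joint and 34.7% in the blade. Their median step from S3 to S4 was -0.13 in the lamina joint and -0.38 in the blade, and from S4 to S5 it was -0.40 in the lamina joint and -0.00020 in the blade. The S1 and S5 means entered the choice of members, and whether the steps themselves differed between the tissues was tested only for the change from S2 to S4.

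The change from S2 to S4 was tested in the lamina joint with edgeR's quasi-likelihood test on all 20 libraries, adjusted over 299 tested tags. All 68 members were among the 299. Their choice by S5 over S1 in this tissue favours a rise from S2 to S4, so the counts describe the members. In the lamina joint, 51 members rose between S2 and S4, 0 fell and 17 did not pass the threshold of 0.05, where 25.1% of all tested tags were called higher and 15.4% lower. No lower member was found at an unadjusted p under 0.05 either, and DESeq2 gave 50 higher and 0 lower. Members changed by a median of 2.68 (log2), all tested tags by 0.10. Both S4 libraries lay above both S2 libraries in 60 of the 68 members, against 38.1% of tested tags. By total counts 40 members rose, with a median of 2.22 for the members and -0.33 for all tested tags, of which 19.4% were then called higher and 24.7% lower. Leaving out single libraries gave between 34 and 52.

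The members with the largest called change in the lamina joint were low at S2. Tag_022 had 2293 and 1726 CPM at S4 and 17.2 and 10.2 CPM at S2. The S4 libraries were far above those of S2, with 1689 counts at S4 and 17 at S2 in all, a ratio of 156 (exact 95% binomial interval 97.0 to 268, counting error only; edgeR adjusted p = 0.00205). Tag_233 had 18.2 and 25.4 CPM at S4, from 18 counts, and no count in either S2 library. Against a floor of 3 counts over the S2 group it was at least 9.41-fold higher (edgeR adjusted p = 0.0193), a bound that leaves out the counting error at S4; the exact 95% interval of the ratio began at 6.89. The adjusted p of tag_233 was 0.0648 without the first LJ S2 or the second LJ S4 library and 0.1 without the second LJ S2 library. The most abundant member, tag_011, had 253996 and 158283 CPM at S4 and 116173 and 183030 CPM at S2, groups that overlapped, with a change of 0.46 ± 0.38 (log2, SE; edgeR adjusted p = 0.348).

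In the blade, 22 members rose between S2 and S4, 1 fell and 45 did not pass the threshold, where 8.36% of all tested tags were called higher and 13.4% lower. Members changed by a median of 1.36 (log2), all tested tags by 0.07. Both S4 libraries lay above both S2 libraries in 53 members, against 31.1% of tested tags. By total counts 16 rose and 1 fell, and by upper quartile factors 30 rose and 1 fell; the median of all tested tags was -0.33 and 0.31 under these scalings, with 5.35% and 11.7% of them called higher and 18.4% and 11.4% lower. The count of 23 members changed was 10 without the first blade S2 or the first blade S4 library and 14 without the second blade S2 library. Both tissues gave a positive fitted change in 62 of the 68 members, against 39.5% of all tested tags, and 19 members rose in both, against 7.02% of all tested tags. The members were chosen for a higher level at S5 than at S1 in both tissues. That choice favours a rise in both, so the agreement is no independent support. The 19 are 37.3% of the 51 in the lamina joint and 86.4% of the 22 in the blade. Another 14 members passed the threshold in neither tissue, against 54.2% of all tested tags; they included tag_011 and had a median of 67.2 CPM.

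Tag_134 had the largest called rise in the blade, with 42.4 and 13.7 CPM at S4, from 42 counts, and no count at S2. It was at least 7.71-fold higher against the same floor (edgeR adjusted p = 0.00981; interval of the ratio from 6.00, without the counting error of a floor), and its adjusted p was 0.0835 without the first blade S2 and 0.0752 without the first blade S4 library. Tag_132 came next, with the libraries given above, by 4.44 ± 0.89 (log2, SE; edgeR adjusted p = 0.00257). Tag_225 was the member that fell. It had 10.9 and 3.90 CPM in the blade at S4 against 90.5 and 55.9 CPM at S2, with 198 and 163 CPM at S3 and 94.3 and 117 CPM at S5. Both S4 libraries of the blade thus lay below all other blade libraries of this tag, by -3.20 ± 0.59 (log2, SE; edgeR adjusted p = 0.00157) between S4 and S2.

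**Figure D3:**
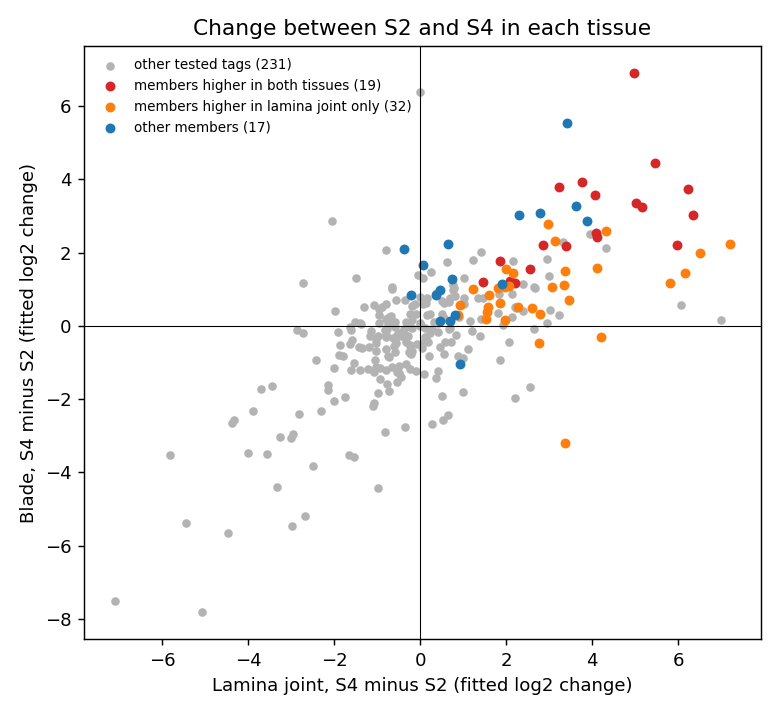
Fitted log2 change from S2 to S4 of each of the 299 tested tags in lamina joint (x axis) and blade (y axis); colours mark the 19 members higher at S4 in both tissues, the 32 called higher in the lamina joint but not in the blade, and the other 17 members. Of the 68 members 62 lie above 0 on both axes, and the member at -3.20 in the blade is tag_225.

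Within this interval, more members passed the threshold in the lamina joint between S3 and S4 than between S2 and S3. Between S2 and S3, 2 members rose and 0 fell, where 1.34% of all tested tags were called higher, 0.669% lower and 2.01% either way. Both S3 libraries lay above both S2 libraries in 37 members, against 27.8% of tested tags, and the median change was 0.84 (log2) for the members and 0.07 for all tested tags. There were 22 members with an unadjusted p under 0.05, all of them higher. DESeq2 gave 15 members higher and 0 lower, and called 9.03% of all tested tags higher and 2.01% lower. The 2 were tag_225, with 34.6 and 48.3 CPM at S3 against 5.73 and 1.28 CPM at S2, and tag_227, with 46.9 and 60.1 CPM at S3 against 9.55 and 8.93 CPM at S2. Their fitted changes were 3.62 ± 0.67 and 2.51 ± 0.54 (log2, SE; edgeR adjusted p = 0.0174 and 0.0192). Neither pair of groups overlapped, but both calls were lost without any single library of LJ S2 or S3 (edgeR adjusted p of 0.0512 to 0.126 for tag_225 and 0.0822 to 0.139 for tag_227). The count of 2 was 6 without the first LJ S1 library, 13 without the second, 4 without the first blade S1 library and 0 without any one library of LJ S2 or S3.

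Between S3 and S4 in the lamina joint, 24 members rose and 0 fell, where 10.4% of all tested tags were called higher and 8.03% lower; 41 had an unadjusted p under 0.05, all higher, and DESeq2 gave 29 and 0. Members changed by a median of 1.56 (log2), all tested tags by 0.15. Tag_134 had 191 and 256 CPM at S4 and 2.04 and 6.53 CPM at S3, and its change was 5.53 ± 0.89 (log2, SE; edgeR adjusted p = 0.00111). Tag_132 rose by 5.00 ± 0.83 (log2, SE; edgeR adjusted p = 0.00111). In both tags all S4 libraries lay above all S3 libraries. Without the second LJ S3 library the count of 24 was 13, without the first LJ S4 library 12, and without the second LJ S4 library 13.

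In the blade, 0 of the 68 members passed the threshold between S2 and S3, as did 0% of all tested tags, by edgeR. Both S3 libraries lay above both S2 libraries in 41 members, against 24.4% of tested tags, and the median change was 0.77 (log2) for the members and 0.20 for all tested tags. At an unadjusted p under 0.05 there were 17 higher and 1 lower, and DESeq2 gave 1 higher. The count was 1 without either LJ S5 library. Between S3 and S4 in the blade, 7 members rose and 1 fell, where 3.01% of all tested tags were called higher and 10.4% lower. Tag_132 rose by 3.0 ± 0.77 (log2, SE; edgeR adjusted p = 0.0185), a call lost without either blade S3 library or the second blade S4 library (0.0726 to 0.147).

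Tag_122 had 1264 and 1036 CPM in the blade at S4 and 181 and 216 CPM at S3, a change of 2.53 ± 0.41 (log2, SE; edgeR adjusted p = 0.0013). Its S4 libraries stood well above those of S3, and it kept the call without any one of the 20 libraries. Tag_225 was again the member that fell, by -4.48 ± 0.59 (log2, SE; edgeR adjusted p = 0.000367), with 11 counts at S4 and 205 at S3. The count of 8 members changed was 2 without the second blade S3, 5 without the first blade S4 and 3 without the second blade S4 library, and by upper quartile factors it was 15.

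**Figure D4:**
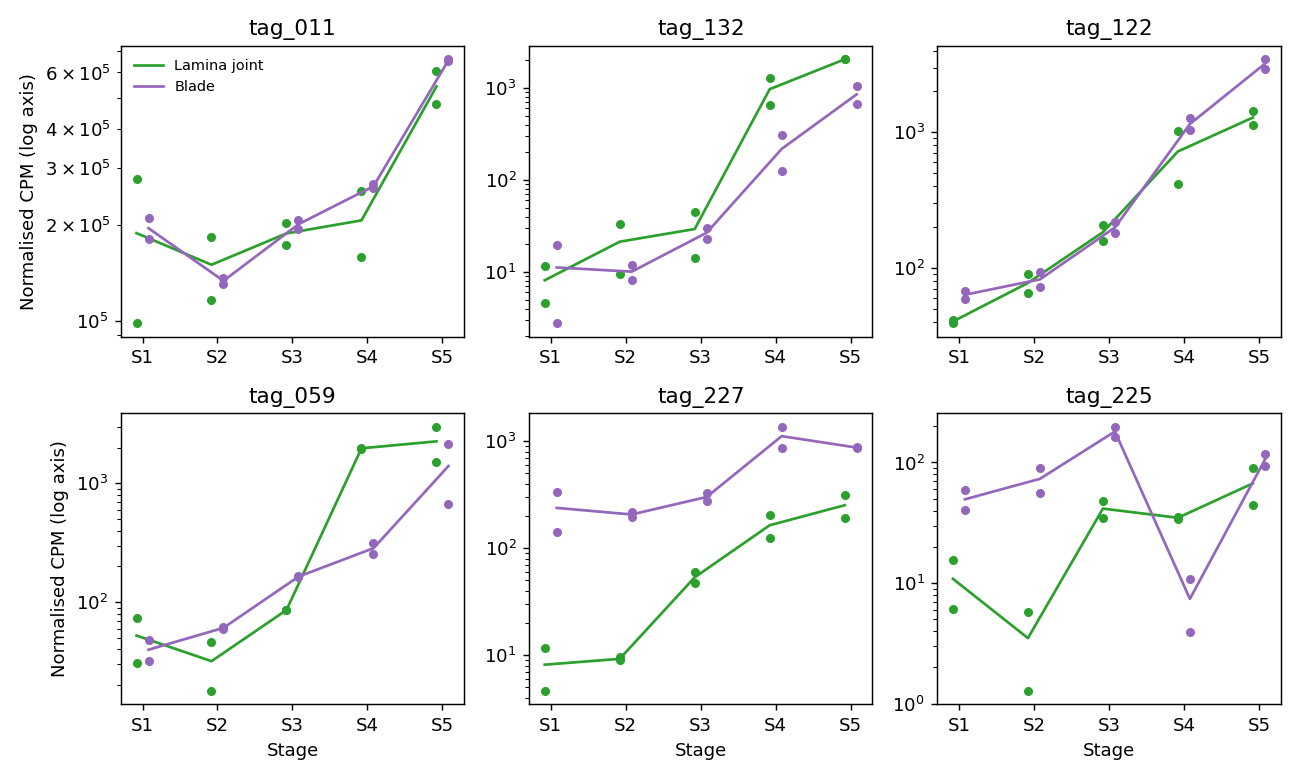
Normalised CPM (log axis) of 6 members at S1 to S5 in lamina joint and blade; points are single libraries and lines join the means of 2. Tag_132 and tag_059 step up at S4 in the lamina joint, tag_227 stays lower in the lamina joint at all stages, and tag_225 drops to 10.9 and 3.90 CPM in the blade at S4.

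The members were more often lower than higher in the lamina joint relative to the blade. Averaged over S2, S3 and S4, 15 of the 68 members were lower in the lamina joint and 0 were higher, where 9.7% of all tested tags were called lower and 7.69% higher. At an unadjusted p under 0.05, 26 members were lower and 2 higher; DESeq2 gave 23 lower and 1 higher, and upper quartile factors 24 lower and 0 higher. The median fitted difference, lamina joint minus blade, was -0.42 on the log2 scale for the members and 0.12 for all tested tags. The differences of the 15 ran from -0.57 to -3.24. Without the second LJ S1 library the count was 23, with 22 lower and 1 higher, tag_134, which was also the member that DESeq2 called higher.

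In all 15, both lamina joint libraries lay below both blade libraries at S2 and at S3, in 8 also at S4. These libraries are the ones that called the 15, so this order describes the call and adds no support to it. All 15 rose between S2 and S4 in the lamina joint, as did 75% of the 68 members and 25.1% of all tested tags. In the blade 6 of the 15 rose, as did 32.4% of the members and 8.36% of all tested tags, and tag_225 fell. The S2 and S4 libraries also called the 15, and low LJ values at S2 favour both calls. The 15 spanned levels from 44.2 to 18639 CPM.

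Tag_227 differed most. It had 9.55 and 8.93 CPM in the lamina joint at S2, 46.9 and 60.1 at S3, and 125 and 203 at S4, against 218 and 196 CPM in the blade at S2, 275 and 328 at S3, and 865 and 1370 at S4. By edgeR the lamina joint minus blade difference of tag_227 was -3.24 ± 0.29 (log2, SE; adjusted p = 6.29e-06), and lamina joint and blade overlapped at none of the 3 stages. Tag_171 had 1.91 and 14 CPM in the lamina joint at S2, 44.8 and 26.1 at S3, and 293 and 335 at S4, against 101 and 124 CPM in the blade at S2, 673 and 234 at S3, and 1385 and 744 at S4. Its difference was -3.04 ± 0.58 (log2, SE; edgeR adjusted p = 0.0024). Both tags kept the call without any one library.

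Stage by stage the median difference between the tissues was smallest at S4, where members separated in both directions, 16 below and 17 above. The median over members of the log2 ratio of lamina joint to blade, computed on mean CPM plus 5, was -0.45 at S1, -0.67 at S2, -0.67 at S3, -0.03 at S4 and -0.76 at S5. For the other 219 tags it was -0.07, 0.15, 0.03, 0.27 and -0.11. Members with both lamina joint libraries below both blade libraries numbered 33 at S1, 38 at S2, 41 at S3, 16 at S4 and 39 at S5, where 29.4%, 29.1%, 28.8%, 16.1% and 36.5% of the tested tags showed that order. Members with both lamina joint libraries above numbered 1, 4, 0, 17 and 6, where 14.4%, 28.4%, 21.1%, 31.1% and 16.7% of the tested tags did. The values at S1 and S5 come from libraries that chose the members.

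**Figure D5:**
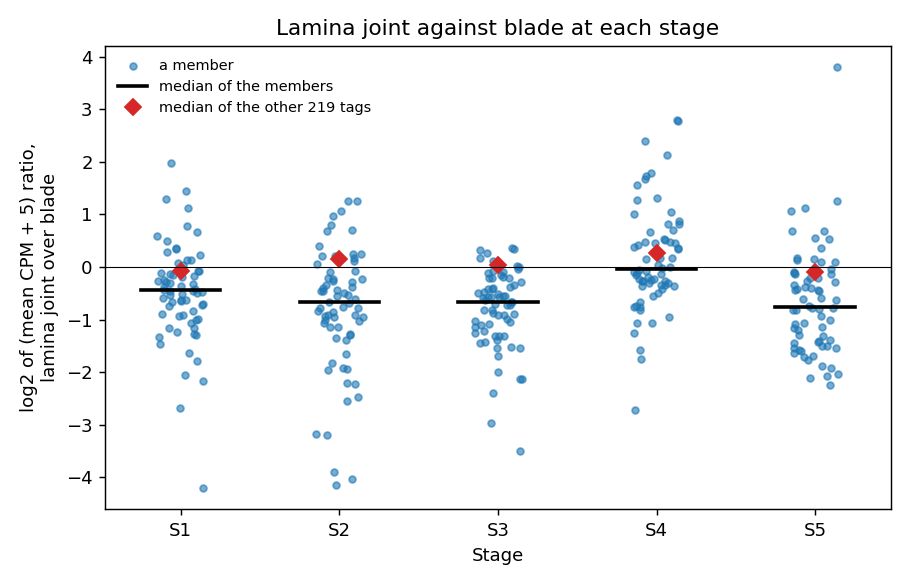
Log2 ratio of mean CPM plus 5, lamina joint over blade, for each of the 68 members at S1 to S5 (points, spread sideways at random), with the median of the members (bar) and of the other 219 tags above 10 CPM (diamond). The members' median is between -0.76 and -0.45 at S1, S2, S3 and S5 and -0.03 at S4.

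The change from S2 to S4 was also set against the other tissue in one contrast. The fitted change was the greater in the lamina joint for 55 of the 68 members, with a median difference of 0.98 on the log2 scale against 0.31 for all tested tags. Only 2 members passed the threshold, both with the greater change in the lamina joint, where 1.34% of all tested tags were called higher and 0% lower by edgeR. At an unadjusted p under 0.05, 19 members had the greater change in the lamina joint and 1 in the blade. DESeq2 gave 7 and 0, and called 5.69% of all tested tags higher and 1.34% lower. By upper quartile factors the median difference was 0.57 for the members and -0.09 for all tested tags, and 1 member passed.

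Tag_225 had the larger difference, 6.56 ± 0.91 (log2, SE; edgeR adjusted p = 0.0011), with 34.1 and 35.5 CPM at S4 against 5.73 and 1.28 CPM at S2 in the lamina joint, where 29 and 4 counts stood behind the S4 and S2 values, and with the drop described above in the blade. Tag_059 had 1957 and 1993 CPM at S4 against 45.8 and 17.9 CPM at S2 in the lamina joint, and 314 and 256 CPM at S4 against 61.7 and 59.9 CPM at S2 in the blade. Both tissues were higher at S4 with no overlap, by a ratio of 67.9 (exact 95% interval 49.3 to 96.3) in the lamina joint and 4.77 (3.50 to 6.65) in the blade. These intervals cover counting error only and leave out the spread between libraries. By edgeR its change was greater in the lamina joint by 3.75 ± 0.84 (log2, SE; adjusted p = 0.0373). Its call was lost by total counts (0.0501), by upper quartile factors (0.0671), by TMM without the most abundant tag (0.0682), and without any one of 10 libraries, namely the second LJ S2, either LJ S3, either LJ S4, either blade S2, the first blade S3 and either blade S4 library (0.0554 to 0.147). The count of 2 was 1 without any of those libraries other than the first LJ S4 library, without which it was 2 and did not include tag_059. It was 6 without the first LJ S1 and 4 without the second LJ S1 library. Tag_225 kept its call without any one of the 20 libraries.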

How the data were processed

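The authors deposited whole-number counts per numbered miRNA tag for each of 20 libraries, not normalised, per the values in the files. Per the submitters' processing notes, CASAVA and build IRGSP-1.0 were used. Which aligner, counter and miRNA annotation made the counts, and how multiply matching reads were treated, is not given in the sources used here. Tags of near-identical miRNAs can share or divide reads; the count vector of 0 members was identical to that of another tag.

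Groups and replicate numbers came from the sample titles. TMM factors were computed over the 484 tags with any count, and CPM used effective library sizes. The members, the tests and the lists were chosen with earlier results of these data known. Tests were edgeR 4.0.16 (R 4.3.3) quasi-likelihood tests with 1 mean for each of 10 groups, on 299 tags kept by filterByExpr (minimum count 10, minimum total 15) on unscaled totals, two-sided, with Benjamini-Hochberg adjustment over the 299 and a threshold of 0.05. Each SE is the log2 fold change over the square root of its F. Tags named per contrast are the up to 2 members per direction with the largest fitted change among those called; for descriptions, up to 2 by level, ratio, nearness to the ratio of 2, or difference of ratios; tag_134 under other settings was named after its values were seen. Alternatives were other scalings, filters, DESeq2 1.42.0, the replicate block, S2 to S4 libraries alone, other settings of the rule, and leaving out each library. The fits were tried on simulated counts with a common spread and equally many tags raised and lowered. The rule was tried on fixed counts with known ratios. A share of the counts that is larger at later stages, like that of the members, was not simulated for the fits. Intervals and floors cover counting error only. Plots used Python 3.11.15 and matplotlib 3.10.9.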

Additional observations from a re-analysis of the deposited data

Results flagged for a closer look

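In 2 of the 68 members the change from S2 to S4 differed between the tissues by a test of the difference itself, lamina joint minus blade in edgeR's fit. Of all tested tags, 1.34% were called higher and 0% lower in that test. For tag_225 it was 6.56 on the log2 scale, with values that were higher at S4 than at S2 in the lamina joint and lower in the blade. For tag_059 it was 3.75, with both tissues higher at S4 and the greater change in the lamina joint; its adjusted p ran from 0.0103 to 0.147 over the fits without 1 library. The call of tag_059 was also lost by total counts, by upper quartile factors and by TMM without the most abundant tag. Tag_225 rested on low counts: 15 and 14 at S4 and 3 and 1 at S2 in the lamina joint, and 9 and 2 at S4 in the blade. What lies behind either difference was not tested.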

How the results depend on the processing

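The number of members was 68, and 37 by total counts and 42 with a ratio of 3; it ran from 60 to 71 when single libraries were left out. The counts of members changed between S2 and S4 in the lamina joint (51), between S3 and S4 in the lamina joint (24) and between S2 and S4 in the blade (23) stayed within 1.5 times over all alternatives other than leaving out a library, and ran from 34 to 52, 12 to 25 and 10 to 33 without single libraries. The count in the lamina joint between S2 and S3 (2) was 14 with TMM over the tested tags only, an alternative chosen after seeing the data, 6 with no filter, 15 with DESeq2, 12 with the S2 to S4 libraries alone, and 0 to 13 without single libraries. The count in the blade between S2 and S3 (0) was 5 with no filter, 1 with DESeq2, 2 with the S2 to S4 libraries alone, and 0 to 1 without single libraries. The count in the blade between S3 and S4 (8) was 15 by upper quartile factors, 14 with DESeq2, and 2 to 12 without single libraries. The count that differed between tissues (15) was 24 by upper quartile factors, 24 with DESeq2, and 11 to 23 without single libraries. The count whose change differed between tissues (2) was 1 by total counts, by upper quartile factors and by TMM without the most abundant tag, 11 with no filter, 7 with DESeq2, 6 with the S2 to S4 libraries alone, and 1 to 6 without single libraries. The share of all tested tags called higher moved too. For LJ S2 to S3 it was 1.34%, against 8.36% with TMM over the tested tags only and 3.93% with no filter. It was 9.03% with DESeq2 and 9.19% with the S2 to S4 libraries alone. For the difference in change it was 1.34%, against 5.37% with no filter, 5.69% with DESeq2 and 4.24% with those libraries alone. For blade S3 to S4 it was 3.01%, against 7.02% by upper quartile factors and 7.36% with DESeq2. The causes were not tested. With the replicate number as a block the counts were 51, 2 and 23 in the lamina joint (S2 to S4, S2 to S3, S3 to S4), 26, 0 and 9 in the blade, 16 between tissues and 2 for the difference in change. Deviations of equally numbered libraries correlated between -0.26 and 0.56 over 45 pairs of groups, with a median of -0.0023. The correlation was above 0.1 in 13 pairs, so whether the numbers pair libraries in some groups is not settled. Over 480 refits of the 16 named fold changes, 0 reversed and 29 lost the call. The 16 were the largest called changes, and many refits left out a library outside the contrast, so the lack of reversals says little. With 2 libraries in a group, and 1 where a library was left out, that lone library is assumed to vary like the other groups. Low counts limit the members under 100 CPM.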
